A study of Mus musculus with 25 samples.

Results

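The 36 genes described here encode the complement system of the mouse: the components of its 3 starting routes, the shared central and terminal steps, the inhibitors and the receptors. A row of a count table was taken as a member when its Ensembl identifier maps to 1 of the 36 listed symbols. Hc is the gene for C5. This matching used no measured values, but the list itself was chosen with earlier results of these data known. Of the 18668 genes in the hepatocyte table members made up 35, and of the 51912 genes in the immune cell table they made up 36. Cfd, which encodes factor D, had no row in the hepatocyte table and was not analysed here in hepatocytes. All 35 passed the filter on low counts in hepatocytes, and 34 did in immune cells, where Cfb and Cfd had 5 and 2 counts over all 12 libraries.

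The study asked how interleukin 6 (IL-6) and its transcription factor STAT3 act on hepatocytes, and what liver immune cells express, in mice fed DDC, a compound that injures bile ducts and the hepatocytes around them. All mice were of a C57BL/6J 129SV background, and cells were sorted from perfused livers. The hepatocyte libraries fall into 5 groups. The GFP group (n = 2) and the IL6 group (n = 3) came from wild-type mice that had received a plasmid encoding GFP or IL-6 by hydrodynamic tail vein injection 1 week earlier. The IL6_STAT3KO group (n = 3) came from Stat3-floxed mice given AAV-TBG-Cre, a virus that expresses Cre under a hepatocyte promoter, for 2 weeks and the IL-6 plasmid for 1 week. The DDC group (n = 2) and the DDC_STAT3KO group (n = 3) were Stat3-floxed mice on the DDC diet for 1 week, with AAV-TBG-GFP or AAV-TBG-Cre for 2 weeks. The GFP and IL6 groups therefore differ from the other 3 in genotype and in having had no virus, and the DDC groups had no plasmid. The immune cell libraries (n = 2 per group) are from wild-type livers: macrophages on normal diet, and macrophages, Ly6C-low monocytes, Ly6C-high monocytes, neutrophils and T cells after 1 week of DDC. The labels do not say whether the libraries of a group come from separate animals, so each test measures only the spread between these libraries.

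Depth was 13625040 to 18428988 counts per library in hepatocytes and 3817794 to 12945663 in immune cells, the shallowest being neutrophil replicate 2. The targeted gene was lower with Cre than without it in both pairs of groups: Stat3 had 339.7, 351 and 424 CPM (counts-per-million, on scaled library sizes) in the IL6 group and 116, 96.0 and 116 CPM with Cre, against 150.1 and 112 CPM in the DDC group and 62.1, 56.3 and 87.3 CPM with Cre. The GFP libraries, without Cre, had 109 and 98.9 CPM of Stat3, a range that the IL6_STAT3KO libraries overlapped, and the counts cover the whole gene, not the deleted exons alone. The STAT3 target Socs3 had 270.2, 292 and 216 CPM in the IL6 group and 6.69, 4.53 and 3.97 CPM with Cre. Il6 itself differed between these groups, at 4.89, 3.21 and 351 CPM against 0.743, 0.559 and 1.05 CPM. IL6 replicate 3 stood apart, with the highest Il6 and with 424.0 CPM of the EGFP transgene where its group's other libraries had 7.08 and 5.06 CPM and the DDC libraries, given the GFP virus, 1309 and 1496 CPM. Alb was at 84156, 33887 and 6388 CPM in IL6 replicates 1, 2 and 3. The libraries labelled T cell held 1639 and 2513 CPM of the Kupffer cell gene Clec4f and 2102 and 1112 CPM of Alb beside 90.0 and 68.1 CPM of Cd3g and only 0.241 and 1.23 CPM of Cd3e, and they are named here as the libraries labelled T cell. The DDC macrophage libraries held 914 and 109 CPM of Alb, replicate 1 being the higher.

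Complement is a set of plasma proteins that tag and lyse microbes and damaged cells, and the liver makes most of them. The classical route starts when C1q, with the proteases C1r and C1s, binds antibody; the lectin route starts when mannose-binding lectins or ficolins, with the MASP proteases, bind sugars; the alternative route amplifies through factors B and D and properdin. All of them cleave C3, the fragments of which tag targets, and then C5, after which C6, C7, C8 and C9 build the membrane attack complex. C1 inhibitor, C4b-binding protein, factor I, vitronectin and clusterin restrain the cascade in plasma, and CD55, CD59 and Crry do so on cell surfaces. Hepatocytes are the main source of most components, whereas C1q and properdin come chiefly from myeloid cells, and IL-6 is a classical inducer of acute phase plasma proteins in hepatocytes.

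In the GFP group, levels per kilobase of exon placed the C3 mRNA highest at 1473 CPM per kb, followed by Vtn (vitronectin) at 1195, Clu (clusterin) at 484 and C9 at 379 CPM per kb. The 3 C1q genes were at 1.90 to 3.58 CPM per kb, and the receptor genes C3ar1, C5ar1, C5ar2, Itgam and Itgax at or below 0.119 CPM per kb. Members together took 2.16% and 1.92% of all counts in the GFP libraries, 5.35%, 5.21% and 5.44% in the IL6 libraries, and 2.58%, 2.49% and 2.36% in the IL6_STAT3KO libraries. The DDC libraries gave 3.41% and 3.58%, and the DDC_STAT3KO libraries 2.51%, 2.82% and 1.83%. Each IL6 library thus lay above every other hepatocyte library, with C3 alone taking 2.84% to 3.34% of its counts.

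The first comparison asked what IL-6 did to complement genes in hepatocytes with intact STAT3. Of 35 members tested 15 passed an adjusted p of 0.05 (edgeR's quasi-likelihood test, Benjamini-Hochberg over all genes), 9 higher and 6 lower in the IL6 group, a share of 42.9% where 25.9% of all genes tested passed. The median log2 fold change was 0.87 over the members and 0.04 over all genes. Members higher in the IL6 group were C3, C4b and Hc, 4 of the 5 plasma inhibitors, C1qb and C5ar1, and members lower were C2, C6, C8b, C8g, Mbl2 and Cd59a. The count was 9 without GFP replicate 1 and 8 without GFP replicate 2, all among the 15, and 11 or more without any single IL6 library.

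C3 (chromosome 17, 57203970 to 57228136, minus strand, mm10) encodes the protein on which all routes converge. It had 8211 and 6940.2 CPM in the GFP libraries and 37341, 32166 and 38261 CPM in the IL6 libraries. Its log2 fold change was 2.25 ± 0.34 (SE; adjusted p = 0.000647), and the lowest IL6 library was more than 3 times the highest GFP library. C4b, the classical and lectin route partner of C2, went from 1708 and 1636 to 4452, 3377 and 3763 CPM. Its log2 fold change was 1.21 ± 0.24 (adjusted p = 0.00376), a call that was lost without GFP replicate 2. Hc, which encodes C5, went from 855 and 714 to 1892, 1659 and 1746 CPM, a log2 fold change of 1.17 ± 0.21 (adjusted p = 0.00196). In none of these 3 genes did the groups overlap. The same held for 24 of 35 members and for 60.7% of all genes tested. Reads of C4b cannot be told with certainty from those of its near-identical copy C4a.

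Among the plasma inhibitors, Serping1, which encodes the C1 inhibitor, had 698 and 629.8 CPM with the GFP plasmid and 3112, 2653 and 2368 CPM with the IL-6 plasmid, a log2 fold change of 2.03 ± 0.24 (adjusted p = 0.000147). C4bp, whose product carries factor I to C4b, had 575 and 526 against 2536, 2255 and 1923 CPM, a log2 fold change of 2.02 ± 0.29 (adjusted p = 0.000443). Vtn, which keeps the terminal complex out of membranes, had 2557 and 2294 against 7506, 6086 and 6537 CPM, a log2 fold change of 1.47 ± 0.24 (adjusted p = 0.00111). For these 3 genes every IL6 library lay above both GFP libraries by more than 2 times. Cfi, the protease factor I, spread more widely, from 838 and 764 CPM to 2780.0, 1976 and 1038 CPM, with IL6 replicate 3 the lowest of its group and not far above the GFP libraries. Its log2 fold change of 1.27 ± 0.38 (adjusted p = 0.0278) did not pass without either GFP library, without IL6 replicate 1 or 2, or in a fit of the 2 groups alone. Clu had 1706 and 1619 CPM against 6664, 4964 and 3462 CPM, groups that did not overlap, but its log2 fold change of 1.60 ± 0.63 had an adjusted p of 0.0804.

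Of the terminal components C6, C8b and C8g were lower, Hc higher, and C7, C8a and C9 did not pass. C6 had 326 and 321 CPM in the GFP group and 118, 117 and 145 CPM in the IL6 group and fell by 1.35 ± 0.32 on the log2 scale (adjusted p = 0.00855). C8g, the smallest of the C8 chains, had 415 and 411 against 118, 121 and 96.9 CPM and fell by 1.89 ± 0.27 (adjusted p = 0.0005), and C8b had 767 and 665 against 477, 232 and 329 CPM and fell by 1.05 ± 0.29 (adjusted p = 0.0201). In all 3 genes the groups stood apart, with C8b the most variable within the IL6 group. The calls for C6 and C8b were lost without either GFP library, and that for C8b also without IL6 replicate 2. Of 6 hepatocyte markers 3 were lower in the IL6 group and 0 higher (median log2 fold change -1.23), and the mitochondrial share of counts was 2.05% to 2.76% in the IL6 libraries against 5.56% and 5.60% in the GFP libraries; their part in the lower members, Mbl2, C2 and Cd59a included, was not tested. C9, which forms the pore, was at 1127 and 810.4 CPM and 1140.2, 914 and 677 CPM, groups that overlapped, with a 95% confidence interval of -1.17 to 0.99 for the log2 fold change. C7 was close to the detection limit, with 1 count in the GFP group and 24 in the IL6 group, a ratio per total count of 13.8 with a counting interval from 2.26 to 569. That interval covers counting error only. The IL6 libraries were far apart, at 1.03, 0.616 and 0.0624 CPM of C7, and GFP replicate 1 had 0.0640 CPM.

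Among the lectin route genes Mbl2 (chromosome 19, 30232942 to 30239687, plus strand), which encodes a mannose-binding lectin, had 366 and 342 CPM with the GFP plasmid and 63.8, 142 and 83.8 CPM with the IL-6 plasmid. It fell by 1.88 ± 0.38 on the log2 scale (adjusted p = 0.00372), and every IL6 library was below both GFP libraries. The other mannose-binding lectin, Mbl1, had 253 and 193 and 174, 182 and 195 CPM, with an interval of -0.83 to 0.27 for its log2 fold change, and Masp1, Masp2 and Fcna did not pass either. In the classical route, C2 had 9.41 and 7.57 CPM against 3.79, 3.51 and 4.74 CPM and fell by 1.08 ± 0.34 (adjusted p = 0.0344), whereas C1ra and C1s1, the C1 proteases, had log2 fold changes of 0.45 and 0.25 that did not pass. C2 and Cfb are uncertain at these low levels, since the gene model Gm20547 on the same strand covers 42.8% of the exon bases of C2 and 79.5% of those of Cfb. The C2 call was lost without either GFP library and without IL6 replicate 1 or 2. On the cell surface, Cd59a, an inhibitor of the terminal complex, went from 57.4 and 65.4 to 27.4, 25.1 and 40.4 CPM and fell by 0.99 ± 0.24 (adjusted p = 0.0103), a call lost without GFP replicate 2, and Cd55 and Cr1l (Crry) did not pass. Cfb, Cfp, C3ar1, C5ar2, Itgam and Itgax were not called either.

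C1qb and C5ar1, which are genes of myeloid cells, were also higher in the IL6 group. C1qb went from 2.75 and 3.51 to 19.4, 16.3 and 10.4 CPM (log2 fold change 2.29 ± 0.68, adjusted p = 0.026), beside 2.10 for C1qa (adjusted p = 0.0591) and 1.92 for C1qc (adjusted p = 0.0987). C5ar1, the C5a receptor of myeloid cells, went from 0.128 and 0.482 to 1.03, 1.85 and 1.93 CPM (log2 fold change 2.39 ± 0.66, adjusted p = 0.0196), which was 1.73 and not called without GFP replicate 1 and 3.58 without GFP replicate 2. The C1qb call was lost without either GFP library and without IL6 replicate 1 or 2. Of 8 Kupffer cell markers 4 were higher and 1 lower in the IL6 group. Their sum without Slc40a1, which hepatocytes also express, was 22.0 to 28.5 CPM in the GFP and 62.9 to 144.4 CPM in the IL6 libraries. With Slc40a1 the sum was 195.7 and 195.2 CPM in the GFP libraries. It was 214.8, 205.0 and 112.7 CPM in the IL6 libraries, so the rise depends on leaving Slc40a1 out. Of 5 macrophage markers 0 passed (3 at an unadjusted p under 0.05), and of 7 measured neutrophil markers 6 were higher, as were 4 of 8 monocyte markers and both cholangiocyte markers tested; no marker of the Kupffer and macrophage lists was at 0 in all libraries. Their part in the C1q and receptor values was not tested. In bulk libraries, fewer cells of a type and less RNA per cell cannot be told apart.

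**Figure D1:**
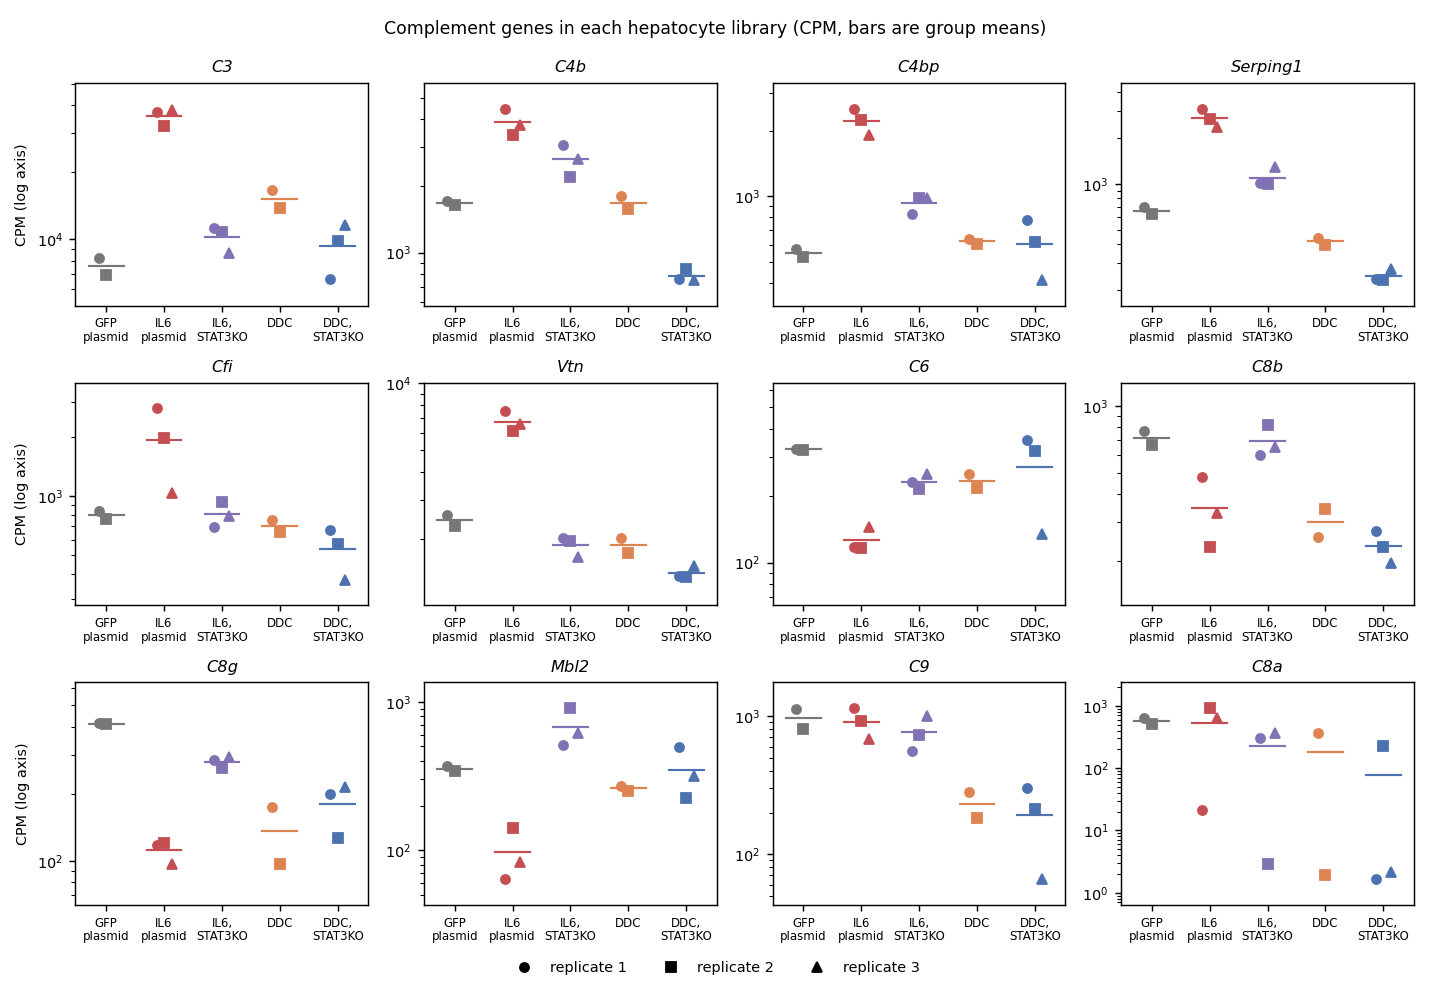
Level in CPM (log axis) of 12 complement genes in each of the 13 hepatocyte libraries, with group means as bars and replicate numbers as symbols. The IL6 libraries lie above all others for C3, C4bp, Serping1 and Vtn and below the GFP libraries for C6, C8b, C8g and Mbl2, while C8a varies more than 100 times within 3 of the 5 groups.

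Of 21 other complement genes tested, 3 were higher, Calr and Vsig4 among them, and 2 lower (Susd4 and C1qbp) in the IL6 group. That is a share of 23.8%, beside 25.9% of all genes. Calr, the endoplasmic reticulum chaperone that can bind C1q, had a log2 fold change of 1.28 ± 0.26 (adjusted p = 0.00409 by edgeR), while Susd4, a complement inhibitor, fell by 2.46 ± 0.28 and C1qbp by 0.86 ± 0.21. The acute phase genes listed outside complement were higher for 20 of 22, with a median log2 fold change of 4.05.

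Promoter sequence is shown for some of the members that differed between the GFP and IL6 groups, and for 2 whose promoter holds a STAT pattern. Hc, C8b, Mbl2, C1qb, C5ar1 and Cd59a also differed and had a promoter entry, but are not shown. C2, C4b, Cfi and Serping1 differed and had no entry, and a second entry for C8g is not shown. The sequences are RefSeq's (GRCm38.p6), the 250 bases before the annotated start, 5′ to 3′ on the gene's strand, and 28 of the 36 members had an entry in that table. C3 (chr17:57228137-57228386, minus strand), C4bp (chr1:130661619-130661868, minus strand) and Vtn (chr11:78498870-78499119, plus strand) were higher with IL-6, and C6 (chr15:4726960-4727209, plus strand) and C8g (chr2:25501720-25501969, minus strand) were lower. C8a (chr4:104876399-104876648, minus strand) and Masp2 (chr4:148602294-148602543, plus strand) did not pass. Capitals mark matches, on either strand, of the STAT pattern TTCNNNGAA, the interferon-stimulated element GAAANNGAA, the kB pattern GGGNNTTCC and the C/EBP pattern TTGCNNAA; matches may overlap one another.
C3: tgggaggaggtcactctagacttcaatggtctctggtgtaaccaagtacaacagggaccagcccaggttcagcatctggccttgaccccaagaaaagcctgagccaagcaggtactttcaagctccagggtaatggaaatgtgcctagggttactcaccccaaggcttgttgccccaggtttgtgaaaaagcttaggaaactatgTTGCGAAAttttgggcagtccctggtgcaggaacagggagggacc
C4bp: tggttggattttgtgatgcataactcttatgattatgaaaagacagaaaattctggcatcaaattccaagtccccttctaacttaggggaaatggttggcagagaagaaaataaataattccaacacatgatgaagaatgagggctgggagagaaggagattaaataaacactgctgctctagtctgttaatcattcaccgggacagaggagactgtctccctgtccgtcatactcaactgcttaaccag
Vtn: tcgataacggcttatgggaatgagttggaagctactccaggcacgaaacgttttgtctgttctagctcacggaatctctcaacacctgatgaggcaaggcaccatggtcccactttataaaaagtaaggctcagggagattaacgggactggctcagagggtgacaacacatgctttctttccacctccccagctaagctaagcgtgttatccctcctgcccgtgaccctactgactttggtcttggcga
C6: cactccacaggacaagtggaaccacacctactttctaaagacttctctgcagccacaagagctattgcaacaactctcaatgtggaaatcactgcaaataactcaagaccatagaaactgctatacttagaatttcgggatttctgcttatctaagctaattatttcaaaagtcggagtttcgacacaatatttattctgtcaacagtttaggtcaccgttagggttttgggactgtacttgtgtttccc
C8g: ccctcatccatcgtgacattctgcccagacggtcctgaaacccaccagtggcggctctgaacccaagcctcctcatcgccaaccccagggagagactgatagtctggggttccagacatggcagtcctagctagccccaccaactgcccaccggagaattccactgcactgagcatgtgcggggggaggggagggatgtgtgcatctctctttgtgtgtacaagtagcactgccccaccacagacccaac
C8a: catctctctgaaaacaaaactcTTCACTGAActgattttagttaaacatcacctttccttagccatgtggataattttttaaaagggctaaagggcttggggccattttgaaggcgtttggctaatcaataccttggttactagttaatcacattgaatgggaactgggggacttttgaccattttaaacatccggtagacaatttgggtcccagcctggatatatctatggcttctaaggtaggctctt
Masp2: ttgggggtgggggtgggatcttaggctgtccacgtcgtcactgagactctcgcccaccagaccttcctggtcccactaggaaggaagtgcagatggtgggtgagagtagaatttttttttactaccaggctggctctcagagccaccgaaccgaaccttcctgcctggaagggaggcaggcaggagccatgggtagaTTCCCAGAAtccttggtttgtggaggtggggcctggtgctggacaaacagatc

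The capitals in C3 are a C/EBP match 45 bases before the start, and those in C8a and Masp2 are STAT matches 228 and 53 bases before it. The C4bp, Vtn, C6 and C8g windows hold none of the 4 patterns. Over the 28 members, the STAT letters were found in 3 (C7, C8a and Masp2) and the C/EBP letters in 4. The interferon-stimulated element was found in 2, Cd59a and C5ar1. The kB letters were found in 1. Among 32536 mouse promoters of the same length, 7.04% held the STAT letters, 9.57% the C/EBP letters, 7.15% the interferon-stimulated element and 5.00% the kB letters. A match is a description of the letters, and its absence concerns only this window.

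The second comparison asked what the loss of STAT3 in hepatocytes did under the IL-6 plasmid. Of 35 members 10 passed in the IL6_STAT3KO group against the IL6 group, 5 lower and 5 higher, a share of 28.6% beside 26.4% of all genes tested. Lower were C3 and 4 of the 5 plasma inhibitors, and higher were C2, C6, C8b, C8g and Mbl2. The comparison shares its IL6 libraries with the first, so the values of the 2 comparisons are not independent, and effects of genotype, virus and Il6 level cannot be told apart between these groups.

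Vtn had 7506, 6086 and 6537 CPM in the IL6 libraries and 2014, 1954 and 1664 CPM with STAT3 deleted, and fell by 1.84 ± 0.21 on the log2 scale (adjusted p = 7.9e-05). C3 had 11262, 10808 and 8673 CPM with STAT3 deleted and fell by 1.81 ± 0.28 (adjusted p = 0.000676). Serping1 had 1012, 991 and 1283 CPM and fell by 1.31 ± 0.20 (adjusted p = 0.000599). In all 3 genes each STAT3-deleted library was below every IL6 library. Absence of overlap between these groups, in either direction, was found in 15 of 35 members and in 44.9% of all genes tested. C4bp was at 833, 981 and 979 CPM and fell by 1.27 ± 0.24 (adjusted p = 0.00239), and Cfi was at 698, 936 and 794 CPM and fell by 1.26 ± 0.33 (adjusted p = 0.0148). The groups did not overlap in either, but the Cfi call was lost without IL6 replicate 1 or without IL6_STAT3KO replicate 1 or 3.

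C4b and Hc lay between the GFP and the IL6 groups without STAT3. C4b had 3070.3, 2199 and 2635 CPM in the IL6_STAT3KO group, a log2 difference of -0.55 ± 0.21 from the IL6 group (adjusted p = 0.0725; 95% interval -1.01 to -0.10). Hc had 1229.8, 1165 and 1343 CPM, a difference of -0.50 ± 0.18 (adjusted p = 0.0595; interval -0.90 to -0.11). Each STAT3-deleted library was below every IL6 library and above both GFP libraries for both genes. Both differences passed with DESeq2. Clu had 1704, 2144 and 1790.4 CPM and a difference of -1.42 ± 0.54 (adjusted p = 0.0738).

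Mbl2 had the largest increase among the members called, at 515, 905 and 615 CPM against 63.8, 142 and 83.8 CPM, a log2 fold change of 2.81 ± 0.36 (adjusted p = 0.000191). All 3 STAT3-deleted libraries also lay above the GFP libraries. C8g had 284, 261 and 294 CPM (log2 fold change 1.33 ± 0.25, adjusted p = 0.00226) and C8b 601, 822 and 655 CPM (log2 fold change 1.00 ± 0.27, adjusted p = 0.0159), the latter lost without replicate 2 of either group. C2 had 11.3, 9.01 and 10.8 CPM (log2 fold change 1.37 ± 0.31, adjusted p = 0.00689), with the counting limit given above. C6 had 229.8, 215 and 249.7 CPM (log2 fold change 0.87 ± 0.29, adjusted p = 0.0423), a call lost on leaving out any 1 of the 6 libraries, although the groups did not overlap. Of 6 hepatocyte markers 2 were higher with STAT3 deleted and 0 lower (median log2 fold change 1.22), and the mitochondrial share was 4.16% to 5.92% against 2.05% to 2.76% in the IL6 libraries; their part in the higher members was not tested.

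The 20 interferon-responsive genes listed, among which none is a complement member, were higher in the IL6_STAT3KO group for 19, with a median log2 fold change of 3.72; their part in the complement values was not tested. The C1q genes, Cfp, the surface inhibitors and the receptors did not pass, with log2 differences of -0.06, 0.20 and 0.33 for the C1q genes. Of 21 other complement genes 3 were higher and 5 lower, a share of 38.1% beside 26.4% of all genes. Among the latter Calr fell by 1.25 ± 0.23 and Cpn1, the carboxypeptidase N subunit that trims C3a and C5a, by 0.92 ± 0.20. Susd4 had a log2 fold change of 1.66 ± 0.26.

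**Figure D2:**
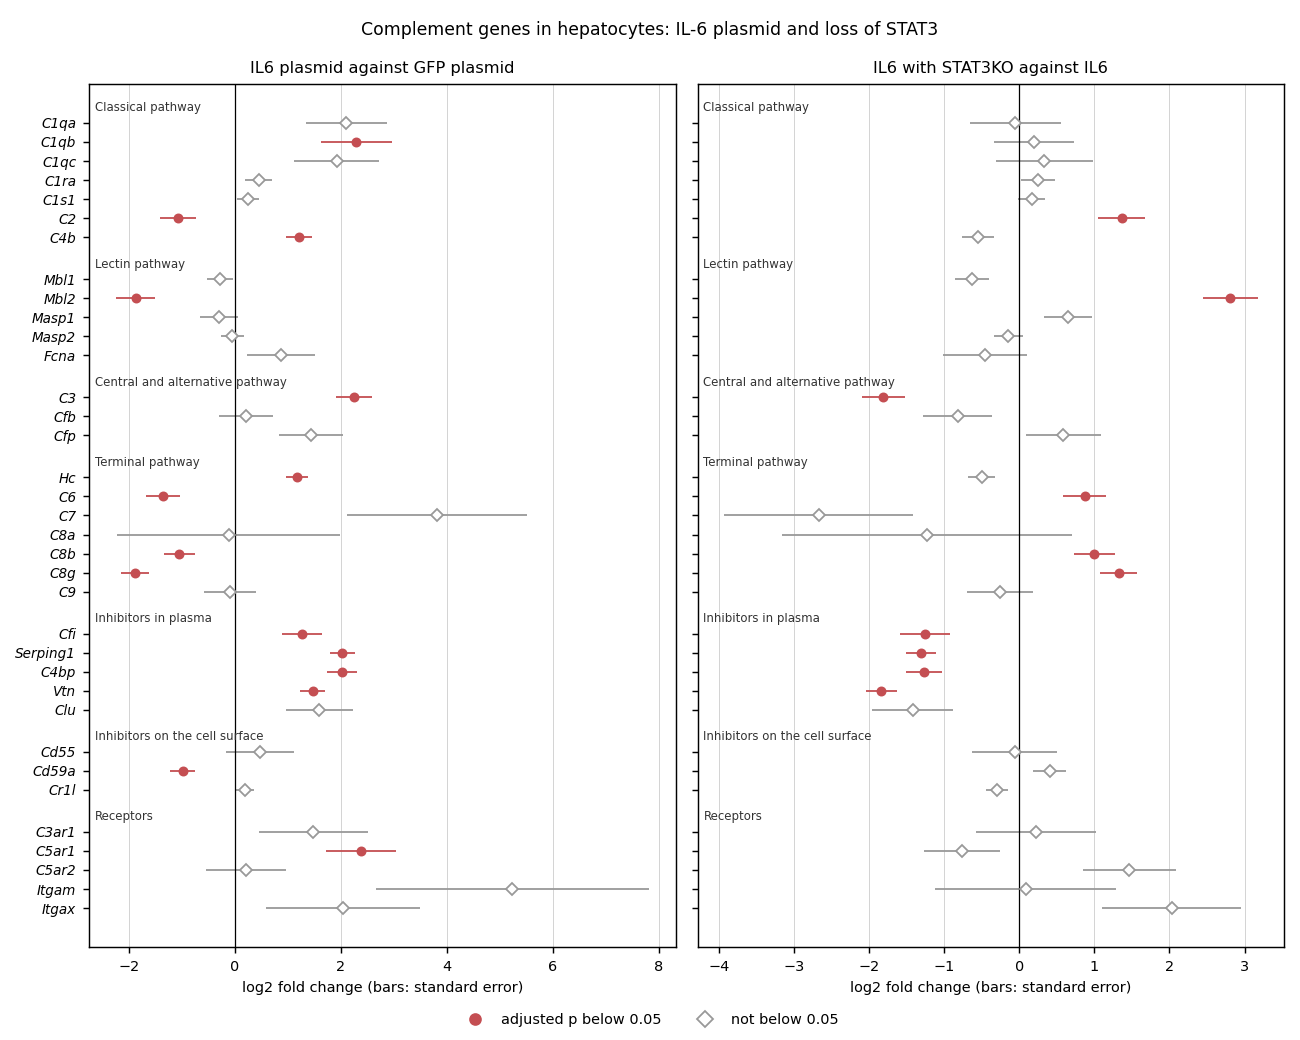
Log2 fold change (horizontal axis) with its standard error for each of the 35 tested members, grouped by role, in the IL6 against GFP comparison (left) and the IL6_STAT3KO against IL6 comparison (right); filled points passed an adjusted p of 0.05. C3, Cfi, Serping1, C4bp and Vtn lie right of 0 on the left and left of 0 on the right, and C2, C6, C8b, C8g and Mbl2 do the reverse, in panels that share the IL6 libraries.

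Set against the GFP group, whose libraries the first comparison shares, 0 of 35 members passed in the IL6_STAT3KO group by edgeR. Of all genes 3.12% passed. At an unadjusted p under 0.05 there were 15 members, beside 19.1% of all genes. C3 was at a log2 difference of 0.44 ± 0.31 (95% interval -0.24 to 1.11) and Vtn at -0.37 ± 0.23 (interval -0.86 to 0.12), and both intervals included 0. Serping1 (0.72 ± 0.23), C4bp (0.76 ± 0.27), Hc (0.67 ± 0.21) and C4b (0.66 ± 0.24) had intervals above 0, with adjusted p of 0.111, 0.153, 0.107 and 0.16. Mbl1 had 96.2, 129 and 132 CPM, below both GFP libraries, with a difference of -0.91 ± 0.25 (adjusted p = 0.0751). DESeq2 called 10 members, which were these 4, Mbl1, the 3 C1q genes, Cfp and Itgax. Over all genes it called 1130 of the 14297 to which it gave an adjusted p. The IL6_STAT3KO and GFP groups did not overlap in 22 of 35 members, nor in 44.6% of all genes tested. C1qb was at 9.35, 25.2 and 18.1 CPM, and the Kupffer cell sum without Slc40a1 was 95.3 to 218.5 CPM in the IL6_STAT3KO libraries. With Slc40a1 the sum was 291.2, 433.7 and 394.1 CPM, against 195.7 and 195.2 CPM in the GFP libraries. The part of either sum was not tested. Of the interferon-responsive genes 18 of 20 were higher than in the GFP group, and 0 of 21 other complement genes passed (6 at an unadjusted p under 0.05).

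The third comparison concerned DDC injury with intact STAT3, against the GFP group, which it shares with the comparisons above and from which it differs in diet, plasmid, virus and genotype, whose effects cannot be told apart. Of 35 members 14 passed, 8 higher and 6 lower in the DDC group, beside 18.6% of all genes tested. Higher were the 3 C1q genes, Cfp and 4 of the 5 receptors, which are genes of myeloid cells, and lower were C8b, C8g, C9, Mbl1, Masp2 and Cd59a. None of the 5 plasma inhibitors passed (2 at an unadjusted p under 0.05, Serping1 and Clu, both called by DESeq2). The count fell to 3 without either GFP library, to 8 without DDC replicate 1 and to 1, C5ar1, without DDC replicate 2.

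C9 was at 1127 and 810.4 CPM in the GFP group and 279.8 and 184 CPM in the DDC group, and fell by 2.06 ± 0.57 on the log2 scale (adjusted p = 0.0265). C8g was at 175 and 97.0 CPM after DDC and fell by 1.60 ± 0.31 (adjusted p = 0.00615), and C8b was at 256 and 342 CPM and fell by 1.26 ± 0.33 (adjusted p = 0.0224). In these 3 genes both DDC libraries were below both GFP libraries. Such separation, in either direction, was found in 33 of 35 members and in 71.2% of all genes tested. Mbl1 had 253 and 193 against 84.5 and 70.8 CPM and fell by 1.52 ± 0.28 (adjusted p = 0.00534). Masp2, the lectin route protease, had 176 and 208 against 90.1 and 86.1 CPM and fell by 1.12 ± 0.24 (adjusted p = 0.01). Masp2 shares 54.9% of its exon bases with Tardbp on the other strand, and whether counting used strand is not given in the sources used here; Tardbp was at 70.9 and 68.5 CPM and 53.2 and 48.5 CPM. Cd59a was at 26.1 and 28.2 CPM and fell by 1.18 ± 0.27 (adjusted p = 0.0131). The calls of C9, C8b and Cd59a were lost on leaving out any single GFP or DDC library. Those of C8g, Mbl1 and Masp2 were lost without DDC replicate 2, and that of Masp2 also without GFP replicate 2 or DDC replicate 1.

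C3 was at 16578 and 13857 CPM in the DDC group, above both GFP libraries, with a log2 difference of 1.01 ± 0.34 and an adjusted p of 0.0571. C4b, at 1794 and 1571 CPM, overlapped the GFP group, with an interval from -0.55 to 0.57. Serping1 was at 442 and 396 CPM, below both GFP libraries, with a difference of -0.66 ± 0.24 (adjusted p = 0.0749). Clu was at 4773 and 7309.6 CPM, above both, with a difference of 1.86 ± 0.67 (adjusted p = 0.0714). C3, Hc, Serping1 and Clu passed with DESeq2.

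C1qa had 3.46 and 3.99 CPM in the GFP group and 22.5 and 34.8 CPM in the DDC group, C1qb 2.75 and 3.51 against 24.1 and 42.6 CPM, and C1qc 2.95 and 4.40 against 20.0 and 40.6 CPM. Log2 fold changes were 2.94 ± 0.81 for C1qa, 3.41 ± 0.73 for C1qb and 3.05 ± 0.87 for C1qc, with adjusted p of 0.0273, 0.00967 and 0.0312. Cfp, properdin, went from 2.24 and 2.41 to 10.2 and 18.0 CPM (log2 fold change 2.60 ± 0.65, adjusted p = 0.019). For these 4 genes both DDC libraries lay above both GFP libraries. The anaphylatoxin receptors were low, C3ar1 at 0.384 and 0.275 against 3.55 and 4.81 CPM and C5ar1 at 0.128 and 0.482 against 3.66 and 4.86 CPM, with log2 fold changes of 3.63 ± 1.07 and 3.79 ± 0.70 (adjusted p = 0.0354 and 0.00513). The value of C5ar1 was 3.11 without GFP replicate 1 and 4.97 without GFP replicate 2, and that of C1qc was 2.45 without DDC replicate 2. C5ar2, the second C5a receptor, had 0.448 and 0.275 against 0.955 and 2.81 CPM and an adjusted p of 0.0499, which did not pass under 8 of 11 other settings. Itgax, the alpha chain of complement receptor 4, had 130 counts in the DDC and 2 in the GFP libraries, a ratio per total count of 56.2 with a counting interval from 15.3 to 469, which covers counting error only.

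Markers of the macrophage lineage moved with these genes: 5 of 8 Kupffer cell and 4 of 5 macrophage markers were higher in the DDC group. The Kupffer cell sum without Slc40a1 was 22.0 to 28.5 CPM in the GFP libraries and 216.1 to 352.9 CPM in the DDC libraries. With Slc40a1 it was 195.7 and 195.2 CPM against 428.8 and 588.8 CPM. The macrophage sum was 22.3 to 24.8 against 79.2 to 153.8 CPM. Their part in the C1q, Cfp and receptor values was not tested. All 8 members that were higher in the DDC group lost their call without GFP replicate 1, and C5ar1 alone kept it without GFP replicate 2 or without DDC replicate 2. Of 21 other complement genes 3 were higher and 5 lower, a share of 38.1% beside 18.6% of all genes. C4a fell by 3.13 ± 0.48 (adjusted p = 0.00222 by edgeR) and Susd4 by 1.93 ± 0.32 (adjusted p = 0.00299 by edgeR). Itgb2, the beta chain of complement receptors 3 and 4, and Vsig4, a complement receptor of macrophages, had log2 fold changes of 3.77 ± 0.88 and 3.36 ± 0.79.

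**Figure D3:**
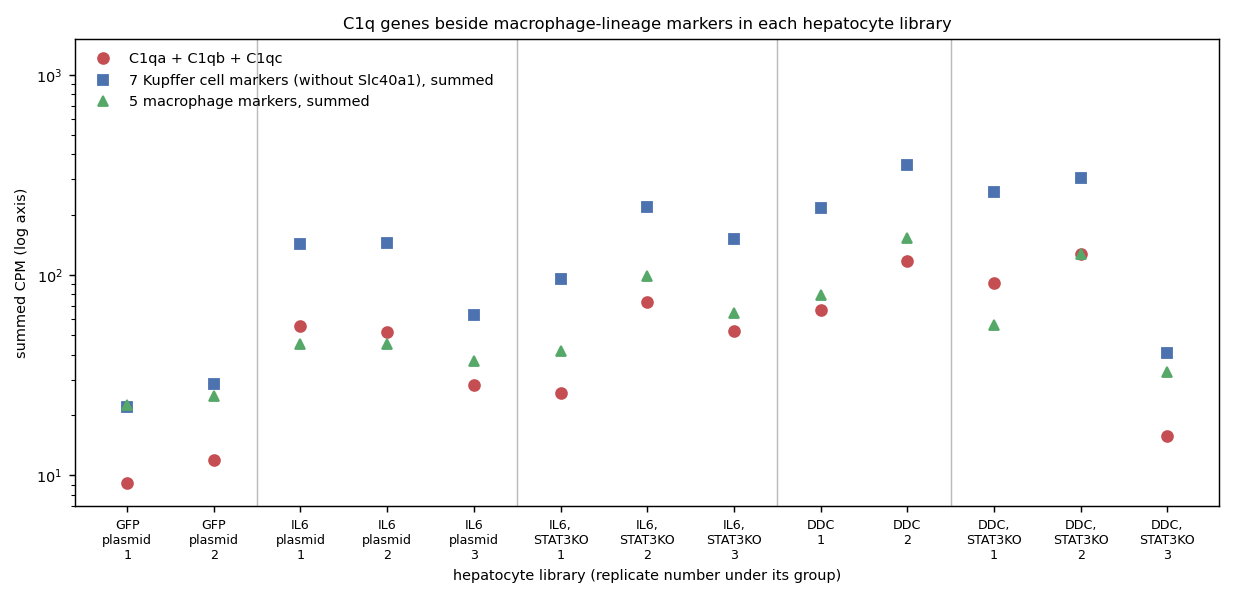
Summed CPM (log axis) of the 3 C1q genes, of 7 Kupffer cell markers and of 5 macrophage markers in each of the 13 hepatocyte libraries, separated by group. Slc40a1 is left out of the Kupffer cell markers, and with it their sum is lowest in IL6 replicate 3, at 112.7 CPM. All 3 sums are lowest in the 2 GFP libraries and next lowest in DDC_STAT3KO replicate 3.

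The fourth comparison asked what loss of STAT3 did under DDC, between 2 groups that share genotype, diet and a virus. By edgeR 0 of 35 members passed, beside 0% of all 14339 genes tested (4 members and 803 genes at an unadjusted p under 0.05). DESeq2 called 9 genes, among them the members C4b and Serping1. C4b had 1794 and 1571 CPM in the DDC group and 761, 843 and 754 CPM with STAT3 deleted, a log2 difference of -1.10 ± 0.23 (interval -1.60 to -0.60; adjusted p by edgeR 0.853). Serping1 had 442 and 396 CPM and 236, 233 and 274 CPM, a difference of -0.76 ± 0.22 (interval -1.23 to -0.28; adjusted p by edgeR 0.853). In both genes every STAT3-deleted library was below both DDC libraries. The groups did not overlap in 7 of 35 members, nor in 18.4% of all genes tested. C3 had 6629, 9826 and 11556 CPM, all below the DDC libraries, with a difference of -0.70 ± 0.30, and C5ar1 had a difference of -1.41 ± 0.53. Of the other complement genes 0 of 21 passed (2 at an unadjusted p under 0.05).

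DDC_STAT3KO replicate 3 stood apart in several members. It had 35.6, 40.0 and 4.64 CPM of C1qa, 8095, 6356 and 1084 CPM of Clu, 300.2, 212 and 65.7 CPM of C9 and 355, 316 and 134 CPM of C6, each series giving replicates 1 to 3, and replicate 3 was the lowest of the group in all 4 genes. Its Kupffer cell sum without Slc40a1 was 40.9 CPM where the other libraries of the group had 259.5 and 304.1 CPM. With this library and IL6 replicate 3 left out, the count was again 0. C1qa, C1qb and C1qc overlapped between the DDC and DDC_STAT3KO groups, with log2 differences of -0.09, -0.30 and -0.31.

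**Figure D4:**
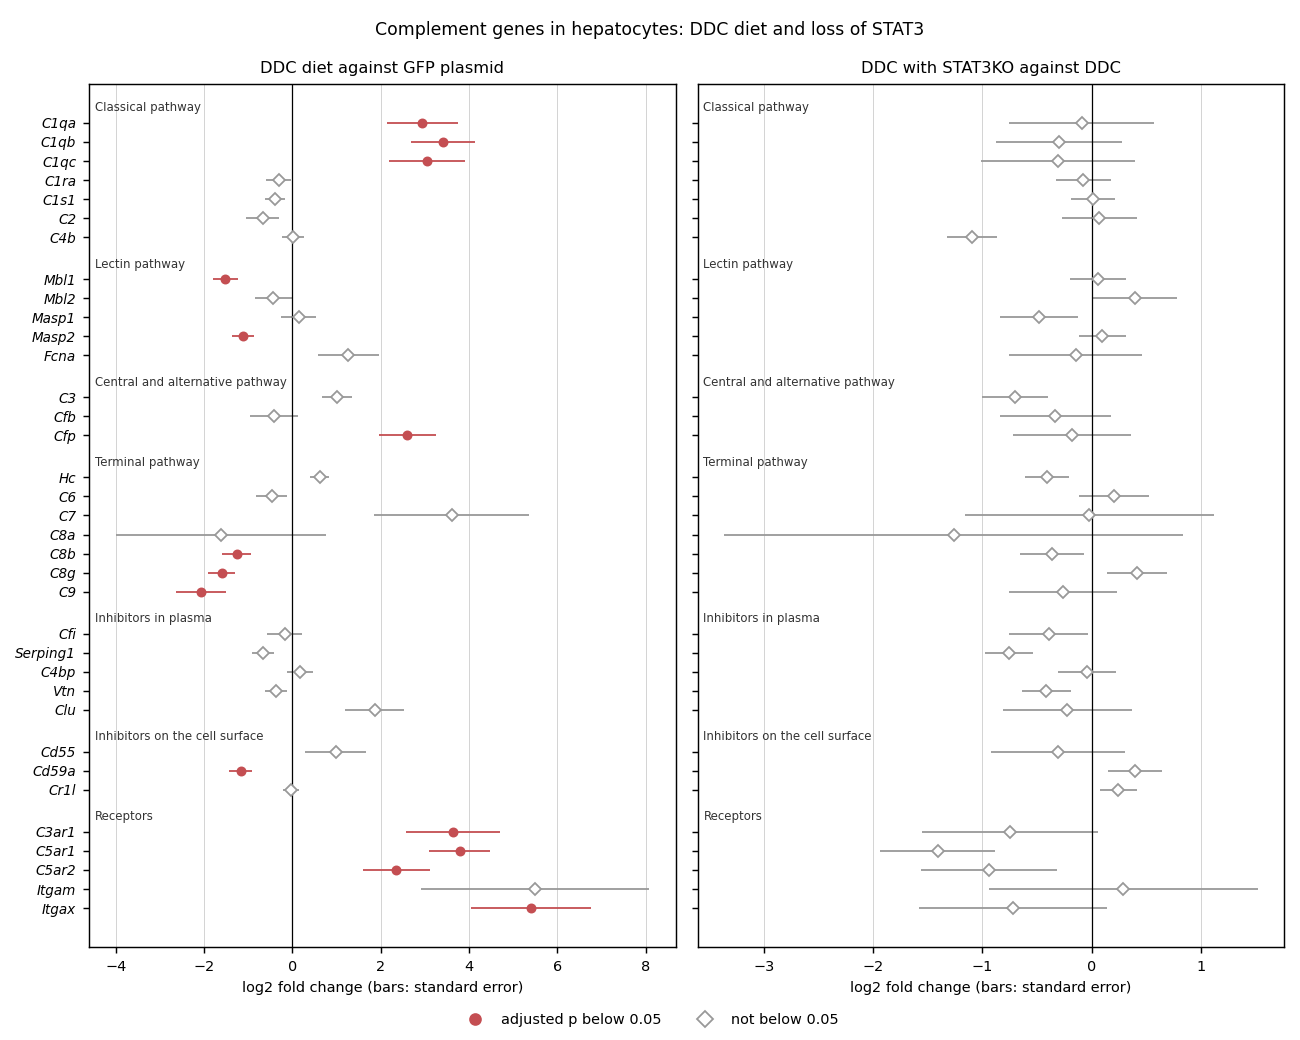
Log2 fold change (horizontal axis) with its standard error for the 35 tested members by role, in the DDC against GFP comparison (left) and the DDC_STAT3KO against DDC comparison (right); filled points passed an adjusted p of 0.05, and each panel has its own scale. Filled points right of 0 on the left panel are the C1q genes, Cfp, C3ar1, C5ar1, C5ar2 and Itgax, and the right panel has no filled point.

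The difference between the 2 STAT3 effects was tested as an interaction, the effect under IL-6 minus that under DDC. Of 35 members 2 passed, Mbl2 and Vtn, a share of 5.71% beside 8.28% of all genes. Mbl2 had a log2 effect of 2.81 under IL-6 and 0.39 under DDC, a difference of 2.42 ± 0.51 (adjusted p = 0.013). Vtn had -1.84 and -0.42, a difference of -1.42 ± 0.31 (adjusted p = 0.0155) that did not pass without either DDC library. C8b (1.36 ± 0.40, adjusted p = 0.0544) and C4bp (-1.22 ± 0.36, adjusted p = 0.0573) were close to the threshold. Leaving out DDC_STAT3KO replicate 3 gave 5 members, with C4bp, Clu and Masp1 added. For C4b the difference was 0.55 ± 0.31 and for Serping1 -0.55 ± 0.30, neither of which passed. Of the other complement genes 2 of 21 passed, Susd4 higher and Calr lower, a share of 9.52% beside the same 8.28%.

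C8a, the alpha chain of C8, could not be described by group. It had 639 and 502 CPM in the GFP libraries, 21.4, 915 and 642 CPM in the IL6 libraries and 302, 2.92 and 369 CPM in the IL6_STAT3KO libraries. The DDC libraries had 367 and 1.96 CPM and the DDC_STAT3KO libraries 1.65, 226 and 2.17 CPM. In 4 of the 5 groups at least 1 library was more than 10 times below another, and the standard error of its log2 fold change reached 2.38 in the DDC comparison. C8a lies at 104815679 to 104876398 on the minus strand of chromosome 4, next to C8b at 104766317 to 104804548 on the plus strand. C8b did not split in this way, and the DDC libraries with 367 and 1.96 CPM of C8a had 256 and 342 CPM of C8b. No cause was tested.

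In immune cells the most abundant members by level per kilobase were the C1q genes, Fcna and Cfp in macrophages. C1qb had 12380.0 CPM per kb in DDC macrophages, C1qa 6892, C1qc 3620.0, Fcna (ficolin A) 2202 and Cfp 1501 CPM per kb. Members together took 2.61% to 3.31% of counts in the 4 macrophage libraries and 0.28% to 0.97% in the 8 others. C3 was low in immune cells, at 17.8 CPM per kb in DDC macrophages and 54.9 in neutrophils.

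Between macrophages on DDC and on normal diet 0 of 34 members passed by edgeR, beside 0.0252% of all genes. At an unadjusted p under 0.05 there were 7 members, beside 10.6% of all genes. DESeq2 called 3 members, beside 851 of the 21400 genes to which it gave an adjusted p. The 3 DESeq2 calls were C3, Clu and Itgax. C3 had 9.61 and 7.68 CPM on normal diet and 149 and 34.3 CPM on DDC. Clu had 9.25 and 18.3 against 472 and 46.3 CPM, and Itgax 7.47 and 21.9 against 49.8 and 112 CPM. For each the groups did not overlap, which also held for 21 of 34 members and 55.7% of all genes tested. For C3 and Clu, DDC replicate 1, the library with more Alb, was the higher by more than 4 times. C4b had 277 and 411 against 108 and 123 CPM (log2 difference -1.57 ± 0.66, adjusted p = 0.46) and C1qb 4617 and 8118 against 13507 and 13436 CPM (difference 1.08 ± 0.58, adjusted p = 0.46). The median log2 difference over all genes was -0.62 in this comparison. Scaling by the median of ratios in place of TMM moved the log2 differences of the members by a median of -0.48. The same change moved those of the members by a median of -0.13 for macrophages against monocytes. For neutrophils the median move was 0.27, and for the libraries labelled T cell it was 0.10.

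Macrophages after DDC were set against the 2 kinds of monocyte, averaged, and the same 4 monocyte libraries serve the neutrophil and T cell comparisons that follow. Of 34 members 10 passed, 9 higher and 1 lower, a share of 29.4% beside 0.731% of all genes. C6, a terminal component, had 429 and 384 CPM in DDC macrophages, 11.0 and 7.66 CPM in Ly6C-low and 1.94 and 4.82 CPM in Ly6C-high monocytes (log2 fold change 6.17 ± 0.48, adjusted p = 2.07e-06). Fcna had 3172 and 2878 CPM against 78.8 and 41.2 and 30.3 and 34.2 CPM (log2 fold change 6.10 ± 0.47, adjusted p = 2.07e-06). C4b had 108 and 123 CPM against 5.69 and 0.932 and 2.09 and 4.25 CPM (log2 fold change 5.14 ± 0.58, adjusted p = 8.91e-05). For all 3 genes both macrophage libraries were far above the highest monocyte library. Absence of overlap, in either direction, was found in 17 of 34 members and in 21.6% of all genes tested. C4b was at 6.06 without Ly6C-low replicate 1.

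C1qa had 8071 and 6265 CPM in DDC macrophages against 697 and 995 and 462 and 634 CPM in the monocytes (log2 fold change 3.40 ± 0.47, adjusted p = 0.000765). C1qc (3.34 ± 0.46), C1qb (2.55 ± 0.48) and Cfp (2.60 ± 0.53) were higher as well, with adjusted p of 0.00069, 0.0128 and 0.0259. Itgam, the alpha chain of complement receptor 3, had 12.6 and 15.7 CPM against 113 and 64.2 and 119 and 106 CPM and fell by 2.82 ± 0.62 (adjusted p = 0.041), a call lost without either macrophage library. The gene model Gm49368 shares 68.7% of the exon bases of Itgam on the same strand. All 8 Kupffer cell markers, Vsig4 among them, were higher in the macrophages.

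Serping1, at 83.9 and 16.5 CPM in DDC macrophages, and Clu, at 472 and 46.3 CPM, also passed, with replicate 1 the higher in both. Their log2 fold changes were 3.79 ± 0.82 and 3.63 ± 0.77 (adjusted p = 0.0385 and 0.0351). Serping1 also did not pass with the libraries labelled T cell left out of the fit (3.78, adjusted p = 0.0501), a fit added after the data were seen. Without macrophage replicate 1 neither gene passed, and the values were 2.16 for Serping1 and 1.12 for Clu; without replicate 2 they were 4.49 and 4.44. Clu was at 4.87 without Ly6C-high replicate 2. The hepatocyte marker sum was 2323 CPM in macrophage replicate 1 and 238.6 CPM in macrophage replicate 2. Of 6 hepatocyte markers 2 passed as higher than in the monocytes, as did 1 of 5 stellate cell and 1 of 5 sinusoidal endothelium markers; their part in these 2 values was not tested.

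Neutrophils differed from the monocytes in 5 of 34 members, all higher, a share of 14.7% beside 1.67% of all genes. C5ar1, the receptor through which C5a draws neutrophils to a site, had 1472 and 467 CPM against 83.4 and 129.8 and 226 and 164 CPM (log2 fold change 2.75 ± 0.47, adjusted p = 0.00391). Cd55, the decay-accelerating factor, had 190.1 and 96.8 CPM against 13.3 and 5.69 and 8.22 and 32.5 CPM (log2 fold change 3.36 ± 0.56, adjusted p = 0.00328). Both neutrophil libraries lay above all monocyte libraries for the 2 genes. Neutrophils and monocytes did not overlap in 12 of 34 members, nor in 23.3% of all genes tested. The C5ar1 value was 1.80 without neutrophil replicate 1 and 3.37 without replicate 2, and that of Cd55 was 4.08 without Ly6C-high replicate 2. The others were C6 (3.50 ± 0.45), C4b (2.45 ± 0.56) and Fcna (1.82 ± 0.42), with adjusted p of 0.00043, 0.0305 and 0.0358, and the C4b value was 3.34 without Ly6C-low replicate 1. All 3 had their highest group mean in macrophages. The C4b and Fcna calls were lost in a fit of the compared groups alone. Of 8 Kupffer cell markers 5 were also higher in the neutrophil libraries, with a sum of 3213 and 1297 CPM against 246.7 to 558.2 CPM in the monocytes. All 5 sinusoidal endothelium markers were higher too, with a sum of 1817 and 731.3 CPM against 101.8 to 306.3 CPM. The part of either list in the 5 members was not tested.

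Itgax was at 629 and 272 CPM and Itgam at 281 and 63.6 CPM in neutrophils, and neither passed (log2 differences 1.71 ± 0.51 and 0.79 ± 0.52). C3ar1 was at 47.6 and 0.418 CPM, so the 2 neutrophil libraries were far apart. The count of members was 8 without neutrophil replicate 1, 9 without replicate 2 and 8 without Ly6C-high replicate 2, the 5 included each time.

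In the libraries labelled T cell 8 of 34 members were higher than in the monocytes and 0 lower, a share of 23.5% beside 1.66% of all genes. They were C4b, C6, Fcna, Cd55 and the plasma inhibitors Serping1, C4bp, Vtn and Clu. C6 had 204 and 185 CPM (log2 fold change 5.10 ± 0.46, adjusted p = 8.75e-05) and Fcna 574 and 1023 CPM (log2 fold change 4.18 ± 0.44, adjusted p = 0.000188). Serping1 had 128 and 74.8 CPM and Clu 451 and 300.0 CPM, the higher values being in replicate 1 for both, as for Alb. In these libraries 8 of 8 Kupffer cell and 5 of 6 hepatocyte markers were higher than in the monocytes, with sums of 5310.0 and 7823 CPM and of 3755 and 2454 CPM. All 5 sinusoidal endothelium markers, 3 of 5 stellate cell markers and 2 of 5 NK cell markers were higher as well (median log2 fold changes of 2.94, 3.93 and 5.33). T cell markers summed to 367.8 and 383.8 CPM, and 5 of 10 were higher than in the monocytes. Their part in the complement values was not tested. Without replicate 2, 16 members passed and without Ly6C-low replicate 1, 13, the 8 included; without replicate 1, C4bp did not pass. Leaving out Ly6C-low replicate 1 gave 5.01 for C4b, and leaving out Ly6C-high replicate 2 gave 3.90 for Cd55, 5.48 for Clu and 4.95 for Vtn. The Cd55 and Vtn calls were lost in a fit of the compared groups alone.

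**Figure D5:**
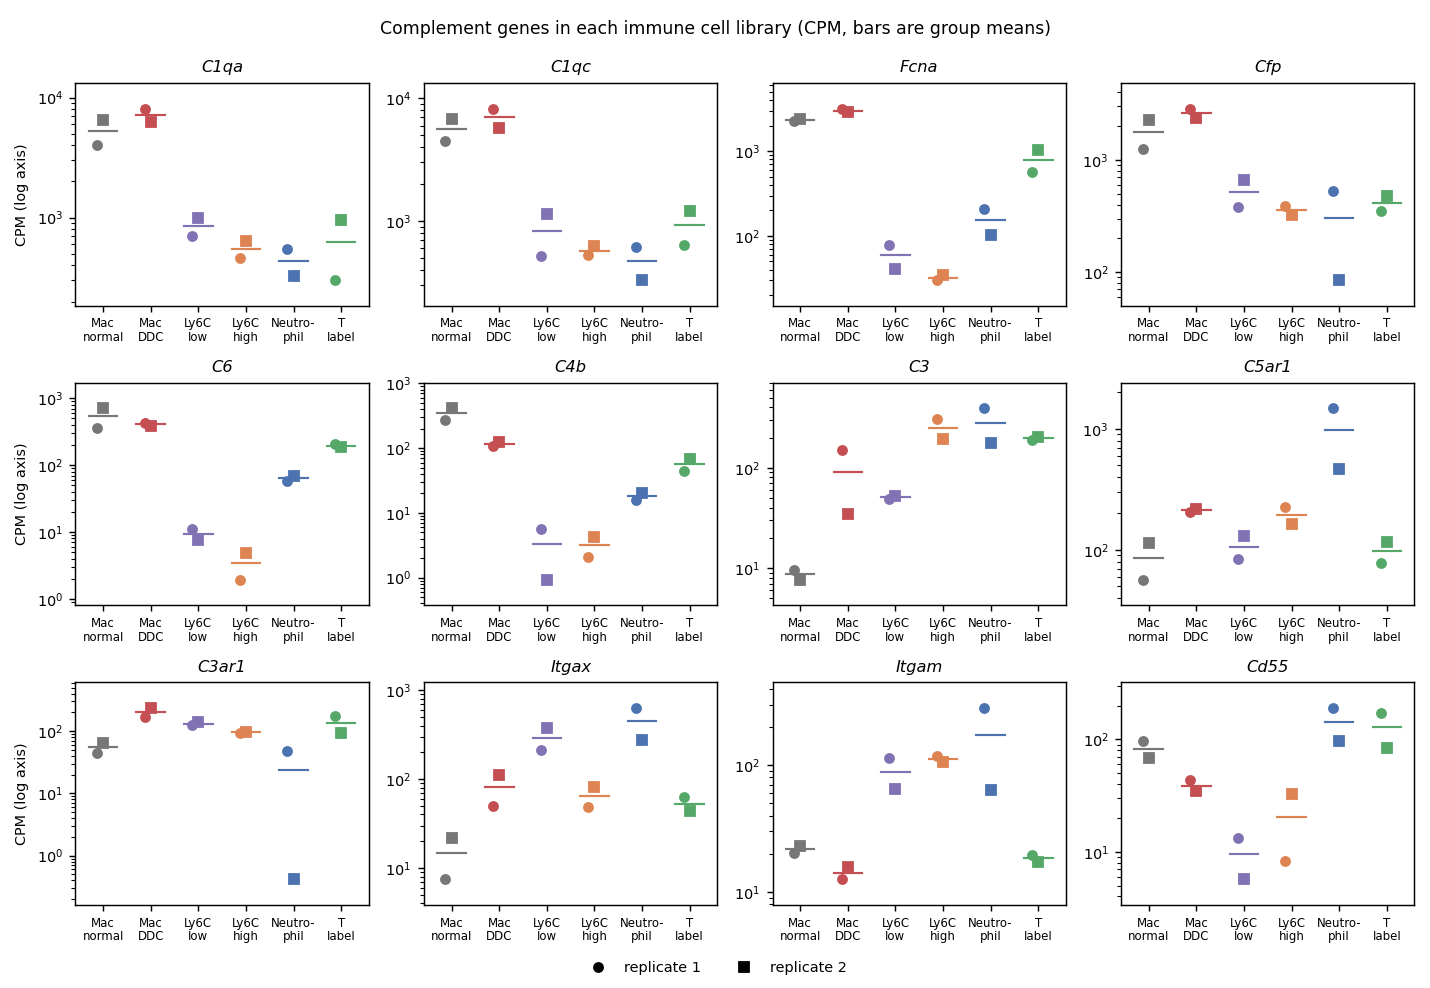
Level in CPM (log axis) of 12 complement genes in each of the 12 immune cell libraries, with group means as bars and replicate numbers as symbols. The 4 macrophage libraries are the highest for C1qa, C1qc, Fcna, Cfp and C6, and the 2 neutrophil libraries for C5ar1. Itgam is lower in both macrophage groups than in every monocyte library.

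Between Ly6C-high and Ly6C-low monocytes 0 of 34 members passed by edgeR, beside 0% of all 27759 genes (7 members and 461 genes at an unadjusted p under 0.05), and 0 members by DESeq2. C3 had 49.2 and 52.0 CPM in Ly6C-low and 304 and 192 CPM in Ly6C-high monocytes, a log2 difference of 2.29 ± 0.64 (95% interval 0.95 to 3.64; adjusted p = 1.0). Itgax had 214 and 373 CPM in Ly6C-low and 48.1 and 80.6 CPM in Ly6C-high monocytes, a difference of -2.19 ± 0.65 (interval -3.55 to -0.83; adjusted p = 1.0). In both genes the groups did not overlap, which also held for 19 of 34 members and 30.7% of all genes tested. With no filter on low counts C3, Itgax and Clu passed.

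Of 25 other complement genes tested in immune cells, Vsig4 was higher in DDC macrophages (5.93 ± 0.45), neutrophils (2.59 ± 0.41) and the libraries labelled T cell (3.92 ± 0.42) than in monocytes. Vsig4 is a complement receptor of Kupffer cells and is also in the Kupffer cell list. None of the other 24 passed in DDC macrophages, Calr was lower in neutrophils, and Colec10 and Colec11 were among the genes higher in the libraries labelled T cell. The shares called in these 3 comparisons were 4%, 8% and 16%, beside 0.731%, 1.67% and 1.66% of all genes. Between the macrophage groups and between the monocyte groups 0 of the 25 passed. At an unadjusted p under 0.05 there were 10 and 0, beside 10.6% and 1.66% of all genes.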

How the data were processed

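RNA-seq libraries were made with a TruSeq kit from sorted liver cells, per the labels' protocols. The deposited values are whole-number counts per gene and library, made by the authors with STAR, HTSeq and DESeq2 on mm10, the names given in the submitters' processing notes. For the versions, any filter and the strand setting: not given in the sources used here. The 36 members, the other complement genes and the marker lists were chosen with earlier results of these data known, some of them taken from an earlier analysis of the same files.

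Each table was fitted whole with edgeR 4.0.16 in R 4.3.3 (TMM scaling, genes kept by filterByExpr, 1 term per group, quasi-likelihood F test), which tested 14339 of 18668 genes in hepatocytes and 27759 of 51912 in immune cells. P-values were adjusted by Benjamini-Hochberg over all genes tested, and a gene was called at an adjusted p under 0.05. Residual degrees of freedom were 8 and 6. Errors of log2 fold changes are standard errors, and intervals use the t distribution at the fit's degrees of freedom. CPM are on TMM-scaled library sizes, and levels per kilobase divide them by exon length. The EGFP row was left out of library sizes and tests. Every member was recomputed under other settings: DESeq2 1.42.0, median-of-ratios scaling, no filter, a fold threshold, a fit of the compared groups alone, a replicate block and each library left out. The procedure was tested on simulated data. Named genes are the members, and among the other complement genes those called, with the smallest adjusted p first; some of the latter are not reported here. Counting error, without molecular identifiers, is a lower limit of the error.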

Additional observations from a re-analysis of the deposited data

Results flagged for a closer look

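The effect of STAT3 loss differed between the IL-6 plasmid and the DDC diet for 2 members by the interaction term of the edgeR fit. For Mbl2 the log2 difference between the effects was 2.42 (SE 0.51, adjusted p = 0.013), with every STAT3-deleted library above every IL6 library under the plasmid. For Vtn it was -1.42 (SE 0.31, adjusted p = 0.0155), a value that did not pass without DDC replicate 1 or without DDC replicate 2. The IL6 group had no virus and a wild-type Stat3 locus, while the DDC group had a control virus and the floxed locus, and these cannot be told apart from the treatment.

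The EGFP transgene row, which no comparison uses, held 424.0 CPM in IL6 replicate 3, where the GFP plasmid libraries held 2.12 and 2.38 CPM and the other IL6 libraries 7.08 and 5.06 CPM. The DDC libraries, given a virus that carries GFP, held more, 1309 and 1496 CPM. That library had the highest C3 and the lowest Serping1, C4bp and Cfi of the IL6 group. Without it 15 members passed against the GFP group, the same 15 genes.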

How the results depend on the processing

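Over 4750 recomputed member values, 4446 kept their side of the threshold, 95 lost a call, 209 gained one and 0 called values changed sign. The 4446 include values of members that were not called in the fit with all libraries. For DDC against GFP, 46 of 383 values lost a call and 15 gained one. Leaving out single libraries gave 8 to 15 members for IL6 against GFP, 1 to 8 for DDC against GFP, 1 to 5 for the interaction, 0 to 2 between the macrophage groups, 6 to 9 for neutrophils, 10 to 16 for the libraries labelled T cell and 0 to 1 between the monocyte groups. Where 1 library was left in a group, it was assumed to vary like the others. DESeq2 gave 10 members for IL6_STAT3KO against GFP, 2 for DDC_STAT3KO against DDC, 5 for the interaction, 3 between the macrophage groups, 11 for neutrophils and 18 for the libraries labelled T cell. With no filter there were 3 between the macrophage groups, 10 for neutrophils, 15 for the libraries labelled T cell and 3 between the monocyte groups. Fits of the compared groups alone gave 5 for IL6_STAT3KO against GFP, 1 between the macrophage groups, 3 for neutrophils and 1 between the monocyte groups. A fit without IL6 replicate 3 and DDC_STAT3KO replicate 3 was added after the data were seen and gave 7 for IL6_STAT3KO against GFP and 6 for the interaction. The causes were not tested.

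Replicate numbers recur between groups. Same-numbered IL6 and IL6_STAT3KO libraries had correlations of their deviations of -0.15, 0.0922 and 0.0582. The highest with another number were 0.15, 0.183 and -0.038. With so few libraries per group, these values cannot decide whether same-numbered libraries were paired. A replicate block gave 3 members for IL6_STAT3KO against GFP, 4 for the interaction and 1 between the macrophage groups, against 0, 2 and 0 without it; it moved no other count by more than 1.5 times.

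Over all genes, the 448 calls for IL6_STAT3KO against GFP were 1130 with DESeq2 and 927 for the compared groups alone, and the 2674 for DDC against GFP were 4415 for the compared groups alone. The 1187 for the interaction were 1874 with DESeq2. In immune cells the 7 calls between the macrophage groups were 851, the 203 for macrophages against monocytes 759, the 464 for neutrophils 2445 and the 460 for the libraries labelled T cell 2581 with DESeq2. With no filter these were 240, 554, 1310 and 1235, and for the compared groups alone 250, 994, 262 and 307. Median-of-ratios scaling gave 17 between the macrophage groups and 818 for neutrophils, and the replicate block gave 26 between the macrophage groups. The 0 calls between the monocyte groups were 74, 25 and 27 with no filter, the compared groups alone and DESeq2. Leaving out single libraries gave 1651 to 3450 calls for IL6 against GFP (3719 with all), 2541 to 3564 for IL6_STAT3KO against IL6 (3781), 89 to 434 for IL6_STAT3KO against GFP, 607 to 1220 for DDC against GFP and 459 to 1611 for the interaction. The lowest counts against the GFP group were without GFP replicate 2 for IL6 and DDC and without GFP replicate 1 for IL6_STAT3KO. In immune cells the ranges were 35 to 79 between the macrophage groups, 182 to 419 for macrophages against monocytes, 502 to 3323 for neutrophils (3323 without neutrophil replicate 1), 572 to 2335 for the libraries labelled T cell (2335 without replicate 2) and 6 to 54 between the monocyte groups. The shares of all genes printed beside the members rest on the fit with all libraries. Every immune group has 2 libraries, and members with 0 to 3 counts in a group are at the limit of detection at this depth.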

Other observations

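C1rl, a relative of C1r, was lower in the DDC than in the GFP group, with a log2 fold change of -0.81 ± 0.24 (adjusted p = 0.0384 by edgeR), while Cd93, a surface protein first described as a C1q receptor, was higher (2.00 ± 0.59, adjusted p = 0.0365). Both genes were picked after their values were seen.

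C4a, the copy of C4b, had 132 and 289 CPM in the GFP group, 180.0, 240.4 and 106 CPM in the IL6 group, 60.9, 58.1 and 102 CPM with the IL-6 plasmid and STAT3 deleted, 28.6 and 19.6 CPM in the DDC group and 26.4, 22.0 and 16.4 CPM with DDC and STAT3 deleted. Its log2 fold change was -3.13 ± 0.48 for DDC against GFP, where C4b was at 0.01 ± 0.26, and how reads were split between the 2 copies is not given in the sources used here.

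Susd4, a membrane inhibitor of complement, had 50.3 and 58.3 CPM in the GFP group and 9.95, 10.4 and 9.30 CPM in the IL6 group, and 25.1, 41.0 and 27.6 CPM with STAT3 deleted. Its STAT3 effect differed between the IL-6 plasmid and DDC by 2.18 ± 0.38 on the log2 scale (adjusted p = 0.00509 by edgeR), beside -1.22 ± 0.34 for Calr (adjusted p = 0.0473).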
